A study of Mus musculus with 8 samples.

Results

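Ccl17 and Ccl22 are neighbouring chemokine genes whose products share 1 receptor, encoded by Ccr4, and the 3 genes were followed here on 8 arrays of mouse pancreatic islets. They were taken as every probe set that the platform annotation gives 1 of those symbols and no other. That gave 3 of the array's 45101 probe sets, 1 per gene: 1419413_at for Ccl17, 1417925_at for Ccl22 and 1421655_a_at for Ccr4. All 3 were among the 16396 genes tested of the 18193 with a probe set of their own. Ccl17 was picked because its mean over the protected arrays stood further above untreated islets than that of any other gene, so the genes were chosen by these intensities and the levels of Ccl17 are a description with no test.

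The islets came from NOD.Scid mice, which form no mature T or B cells, and were cut out of pancreas sections with a laser. One array held untreated islets. In the diabetogenic arm (arrays of days 3, 4 and 8) the mice were given CD4+ T cells from BDC2.5 transgenic animals, which carry a receptor for a beta cell antigen. In the protected arm (days 3, 4, 5 and 8) mice got the same cells plus an anti-Ifng antibody against interferon-γ, on the day before the transfer and on day 2, and did not become diabetic according to the design text. Every array held pooled RNA of 5 mice, and no arm and day has more than 1 array, so no value below has a replicate of its own day. The labels name no control antibody and no age of the mice. An effect of blocking interferon-γ and an effect of injecting an antibody cannot be told apart. The 8 arrays include none of the diabetogenic arm on day 5, when the islets were too swollen to dissect according to the design text.

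Ccl17 and Ccl22 are made chiefly by dendritic cells and macrophages, and they attract T cells that carry Ccr4, among them T helper 2 cells, regulatory T cells and skin-homing memory cells. Interleukin-4 and interleukin-13, acting through Stat6, and the growth factor GM-CSF are known inducers of both ligands, and interferon-γ is known to dampen them in some cells. In islets the recruitment of regulatory and effector T cells by such ligands bears on whether beta cells are attacked.

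The promoters of the ligands are shown first, because the pair lie side by side in the genome and their RNA levels differed widely in how far they moved. In RefSeq annotation of GRCm38.p6, Ccl22 spans chr8:94745684-94751388 and Ccl17 spans chr8:94809380-94812038, with 58.0 kb and the chemokine gene Cx3cl1 between them. Ccr4 lies on another chromosome, at chr9:114490316-114505476. The 250 bases before the RefSeq start of each ligand are printed on the + strand, for Ccl17 at chr8:94810203-94810452, which is inside the listed span of the gene, and for Ccl22 at chr8:94745434-94745683. Capitals mark matches to STAT-type motifs in Ccl17 and to an NF-κB-type motif in Ccl22.
Ccl17: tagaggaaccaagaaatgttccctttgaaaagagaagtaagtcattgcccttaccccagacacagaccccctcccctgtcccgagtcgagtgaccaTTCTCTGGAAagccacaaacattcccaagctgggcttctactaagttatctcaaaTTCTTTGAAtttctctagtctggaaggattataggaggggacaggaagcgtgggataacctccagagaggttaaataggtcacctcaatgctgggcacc
Ccl22: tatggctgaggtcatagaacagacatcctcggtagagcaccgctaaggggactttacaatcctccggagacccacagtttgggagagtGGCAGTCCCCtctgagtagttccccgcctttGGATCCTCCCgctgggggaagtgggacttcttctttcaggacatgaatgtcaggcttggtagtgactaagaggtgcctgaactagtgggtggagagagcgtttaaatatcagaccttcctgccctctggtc
The 5 motifs searched on both strands were TTC and GAA with 3 or 4 bases between them for STAT proteins, GGG and CC with 5 between for NF-κB, GAAA and GAAA with 2 between for interferon-stimulated elements, and TATAAA for the TATA box. No 2 of the printed matches overlap. Ccl17 held 1 match to each STAT motif, TTCTTTGAA at −99 to −91 and TTCTCTGGAA at −154 to −145, counted from the start site. Of 32851 mouse promoters of that length, 7.02% held the motif with the shorter spacing and 5.85% the other. Ccl22 held no STAT match in this window and 2 matches to the NF-κB motif, both read on the other strand, GGCAGTCCCC and GGATCCTCCC. Of all promoters, 45.8% hold that motif. The Ccr4 window had no match to any of the 5. The last 2 motifs, found in 2.98% and 12.37% of promoters, were in none of the 3 windows. These letters are a description of the windows and not of binding.

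The arrays differed in brightness. Array medians lay between 3.14 and 3.96, but the 99th percentile was 25.6 on the diabetogenic array of day 4, 67.0 on the protected array of that day and between 68.2 and 94.9 on the other 6. Spiked controls had medians of 1.63 to 2.19 on the untreated and both day 3 arrays and of 468 to 1242 on the 5 later ones, so the untreated array was like those of day 3 and apart from those of days 4, 5 and 8 in this respect. Ins2, the main insulin gene of beta cells, was between 3409 and 6359 on every array. Other beta cell markers were not: the glucose transporter gene Slc2a2 was 161 in untreated islets and 1.76 to 11.7 on the arrays of day 4 and later, and the transcription factor gene Pdx1 was 77.5 and then 1.33 to 11.6. Acinar markers summed to 929 in untreated islets and differed between the arms, at 889 and 899 in diabetogenic and protected islets of day 3, 79.2 and 1805 on day 4, and 115 and 568 on day 8. Endothelial markers summed to 7.78 and 10.9 on day 4 and to 5.25 and 21.3 on day 8, in the same order, and fibroblast markers to 36.6 to 301 in diabetogenic and 44.1 to 612 in protected islets. The part of these cells in the differences between the arms below was not tested.

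Ccl17 was at the bottom of the scale in untreated islets and far above it on every array after T cell transfer. Its intensity was 3.00 in untreated islets, below the array's median of 3.42. It was 132, 328 and 362 in diabetogenic islets of days 3, 4 and 8. It was 559, 2417, 3667 and 1069.6 in protected islets of days 3, 4, 5 and 8. All 7 arrays of injected mice lay far above the untreated one, and the 3 diabetogenic arrays all lay below the 4 protected arrays. In the background, 8.87% of genes had every injected array above the untreated one, and 2.34% had every diabetogenic array below every protected one. Nothing is read from those shares for Ccl17, whose choice used these arrays. In these bulk samples, more cells that make Ccl17 and more Ccl17 RNA per cell cannot be told apart.

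**Figure D1:**
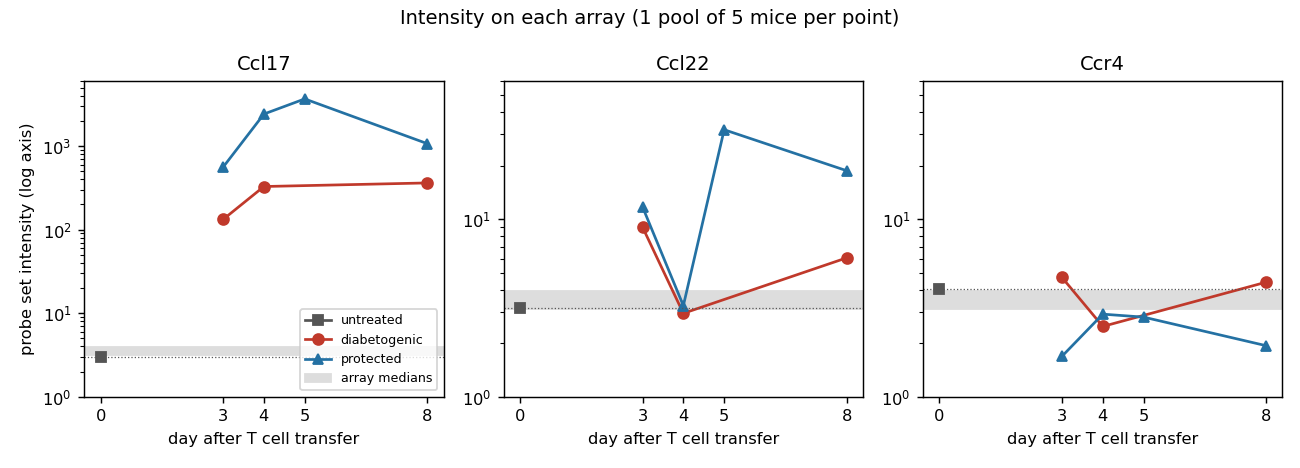
Probe set intensity (log axis) against day after T cell transfer for Ccl17, Ccl22 and Ccr4, with 1 point per array and the untreated array at day 0; the grey band spans the 8 array medians and the dotted line marks the untreated value. Ccl17 peaked at 3667 on day 5 in the protected arm and stayed between 132 and 362 in the diabetogenic arm, Ccl22 was at or below the array medians on day 4 in both arms, and Ccr4 was at most 4.70.

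Set against the untreated array, and with a pseudocount of 2.155 added to each intensity, Ccl17 was 26.1-fold, 64.1-fold and 70.7-fold higher in diabetogenic islets of days 3, 4 and 8. In protected islets it was 108.8-fold, 469-fold, 712-fold and 208-fold higher on days 3, 4, 5 and 8. The mean difference was 8.20 ± 1.24 (SE) on the log2 scale over the 4 protected arrays, or 295-fold, and 5.62 ± 1.28 over the 3 diabetogenic ones. The next genes in the protected arm were the chemokine gene Ccl24 at 6.05, the macrophage lectin gene Chil3 at 5.75, the transglutaminase gene Tgm2 at 5.68, the fungal receptor gene Clec7a at 5.38 and Laptm5, a lysosomal membrane protein of blood cells, at 5.10. Both arms share the single untreated array, so its error enters all of these values.

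The diabetogenic arrays were not part of the rule, though the untreated array was. Ccl17 also ranked first of 16396 genes by its mean difference from untreated islets there. Array by array it had the highest difference on all 4 protected arrays and on the diabetogenic array of day 4. On the diabetogenic array of day 3 it was behind Cxcl9 and Gbp2, both interferon-γ targets, and on that of day 8 it was behind Tyrobp, a signalling adaptor of myeloid cells. Its first place in the diabetogenic arm was kept with both other pseudocounts, with no filter, after quantile normalization and with probe sets averaged.

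Between the arms, Ccl17 was lower in diabetogenic islets on each matched day. The protected level was 4.17-fold the diabetogenic one on day 3, 7.32-fold on day 4 and 2.94-fold on day 8. The mean log2 difference was −2.16 with an SE of 1.56, and that SE was 0.36 when the variance was not modelled as a trend with level. Without the day 3, 4 or 8 pair the difference was −2.22, −1.81 or −2.47, with an SE of 4.53, 0.22 or 5.61, so the error depends on how the variance is modelled and on which days are used. At least 2-fold lower in diabetogenic islets were 0.506% of all genes on day 3, but 14.1% on day 4 and 13.9% on the last day. On all 3 days 0.128% were, or 21 genes with Ccl17 among them. Nothing is read from these shares for Ccl17, since the rule used the protected arrays.

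Over time Ccl17 did not follow a straight line. In the protected arm it went from 559 on day 3 to 3667 on day 5 and stood at 1069.6 on day 8, while in the diabetogenic arm it was 132, then 328 and 362. The fitted change per day was 0.22 ± 0.32 (SE) in diabetogenic islets (limma, adjusted p = 0.862). As a description, it was 0.05 ± 0.32 in protected islets, whose arrays the rule used, and the slopes differed by 0.17 ± 0.45. In each of the 3 slope fits limma called 0% of genes. An unadjusted p under 0.05 was reached by 1.78% of genes for the protected slope, 6.7% for the diabetogenic slope and 1.99% for the difference, or 292, 1098 and 327 genes. The slopes rest on the day 8 arrays: without that array they were 1.36 in the protected arm and 1.30 in the diabetogenic arm, and without the day 3 array the protected slope was −0.36.

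Ccl22, the other ligand, was dim on the untreated and day 4 arrays and above its array's median on the others. Its intensity was 3.17 in untreated islets. It was 9.03, 2.95 and 6.06 in diabetogenic islets of days 3, 4 and 8. It was 11.7, 3.26, 31.9 and 18.8 in protected islets of days 3, 4, 5 and 8. The untreated value and both day 4 values were below their array's median, so Ccl22 was not distinguishable from the dim end of the scale there. The highest levels were those of protected islets of days 5 and 8, against array medians of 3.61 and 3.56, and the 2 arms overlapped.

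On matched days the protected level of Ccl22 was 1.24-fold, 1.06-fold and 2.55-fold the diabetogenic one on days 3, 4 and 8. The direction was the same on all 3 days, as it was for 20.1% of all genes. The mean log2 difference, diabetogenic minus protected, was −0.58 ± 0.37 (SE, 3 day pairs, limma adjusted p = 0.650). Its 95% interval of −1.34 to 0.17 includes no difference and also a level 2-fold lower. The difference was −0.20 without the day 8 pair and −0.38 with a pseudocount of 8.62. In that comparison 0.11% of genes passed, 18 in all, with 15 lower and 3 higher in diabetogenic islets, and 8.97% had an unadjusted p under 0.05. With 3 pairs an exact sign-flip test cannot give a p below 0.25, which is the value it gave for Ccl22.

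Against untreated islets Ccl22 differed by 0.55 ± 0.89 in the diabetogenic arm (limma, adjusted p = 0.935), with a 95% interval of −1.33 to 2.42. The protected arm stood 1.51 ± 0.86 above untreated, as a description, where Ccl17 stood 8.20 above. No gene passed in the diabetogenic comparison by limma (0%), and 450 (2.74%) had an unadjusted p under 0.05. Ranked by that difference, Ccl22 was 285th of 16396 genes in the protected arm and 2672nd in the diabetogenic arm. The protected mean includes day 5, when Ccl22 was highest, and the diabetogenic arm has no array of that day. The change per day was −0.01 ± 0.22 in diabetogenic islets (limma, adjusted p = 0.989) and 0.22 ± 0.22 in protected ones (limma, adjusted p = 1), and the slopes differed by −0.24 ± 0.32 (limma, adjusted p = 1). Without the protected day 5 array, the protected difference from untreated was 1.13.

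Ccr4, the receptor, was near or below the middle of the scale on every array. Its intensity was 4.04 in untreated islets. It was 4.70, 2.49 and 4.42 in diabetogenic islets of days 3, 4 and 8. It was 1.69, 2.92, 2.81 and 1.94 in protected islets of days 3, 4, 5 and 8. It exceeded the array median on 3 arrays, those of untreated islets and of the diabetogenic arm on days 3 and 8, and passed the filter through them. The arms overlapped, the lowest diabetogenic value lying between protected ones.

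The log2 difference of Ccr4 between the arms was 0.83, −0.13 and 0.68 on days 3, 4 and 8, so it was near 0 on the day when both arrays were below their medians. The mean was 0.46 ± 0.33 (SE, 3 day pairs, limma adjusted p = 0.685) with a 95% interval of −0.21 to 1.13, which includes a 2-fold higher level in diabetogenic islets. It was 0.28 without the day 3 pair, 0.76 without the day 4 pair and 0.21 with a pseudocount of 8.62. With no filter it was 0.46 ± 0.32 (limma, adjusted p = 0.689). Ccr4 was above the median on no protected array, so the filter let it in partly through the arm where it was higher. The mean is therefore given as a description. Against untreated islets the diabetogenic arm differed by −0.06 ± 0.46 (limma, adjusted p = 0.987), the interval running from −1.04 to 0.92. The protected arm stood at −0.47 ± 0.45, as a description. The fitted change per day was 0.03 ± 0.11 in diabetogenic islets (limma, adjusted p = 0.958), −0.01 ± 0.11 in protected ones (limma, adjusted p = 1) and 0.04 ± 0.15 for the difference (limma, adjusted p = 1). At a level this dim the array gives little more than a bound near its median.

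Ccl17 had the highest mean difference from untreated islets of all genes in both arms, and so also among the 33 chemokine genes tested. Its choice fixed this in the protected arm, and both arms share the untreated array. Ccl22 ranked 13 of the 33 in the protected arm and 15 in the diabetogenic arm. With day 5 in the protected means and not in the diabetogenic ones, the arms differed in which chemokines came next. In protected islets these were Ccl24, which attracts eosinophils, at 6.05, Ccl6 at 4.14, Ccl9 at 3.52 and Ccl8 at 3.25. In diabetogenic islets these genes stood at 0.998, 2.09, 0.39 and 1.11. There the chemokines after Ccl17 were Cxcl9 at 4.46 and Ccl5 at 3.32, ligands of receptors on T helper 1 cells, which stood at 2.23 and 2.20 in protected islets. Of the other 31 chemokines, 18 had a negative and 13 a positive difference between the arms, and their median was −0.08, against −0.07 over all genes. One of the negative ones, Ccl12, passed the filter through protected arrays alone. Ccl24 and Ccl9 passed as lower in diabetogenic islets (limma, adjusted p = 2.42e-06 and 0.00149) and none passed as higher, where the background was 0.0915% lower and 0.0183% higher. One of them passed after quantile normalization or with probe sets averaged, and neither without the day block. By size of the difference Ccl17 was the third lowest of the 33, after those 2. Nothing is read from that place, since the rule used the protected arrays.

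**Figure D2:**
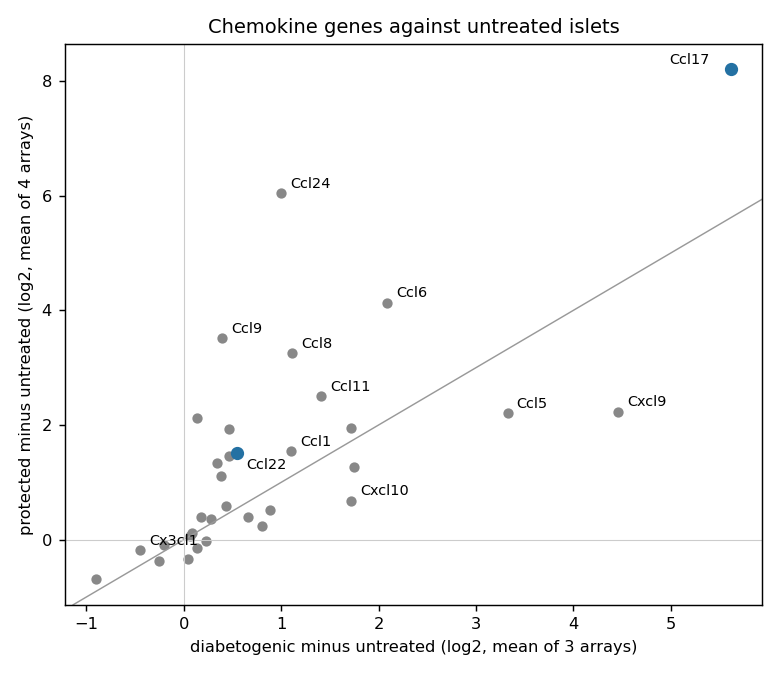
Mean log2 difference from the untreated array for each of 33 chemokine genes, with the diabetogenic arm (3 arrays) on the x axis, the protected arm (4 arrays) on the y axis, and the diagonal marking equal differences; both axes share the untreated array. Ccl17 sits at 5.62 and 8.20, furthest out on both axes, which its choice fixed for the y axis. Ccl22 at 0.55 and 1.51 lies in the cluster of other chemokines. The protected means include day 5, which the diabetogenic arm lacks.

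The known inducers of the ligands were taken as a list of 18 cytokine, receptor and Stat6 pathway genes, of which 16 were tested. Between the arms 11 had a negative and 5 a positive difference, none passed, and the median was −0.46, against −0.07 over all genes. By day the list's median was −0.04, −0.74 and −0.26 on days 3, 4 and 8, so it was furthest from 0 on day 4. At least 2-fold lower in diabetogenic islets were 0, 7 and 1 of the 16, and 2-fold higher 0, 1 and 2. Over all genes 0.506%, 14.1% and 13.9% were 2-fold lower on those days, and the diabetogenic array of day 4 was the dimmest. The medians against untreated islets were 0.36 in the protected and 0.11 in the diabetogenic arm, against −0.04 and −0.10 over all genes. Il4, which encodes interleukin-4, was 1.69 in untreated islets, 1.26, 2.91 and 1.76 in diabetogenic islets of days 3, 4 and 8, and 2.98, 9.59, 7.04 and 2.81 in protected islets of days 3, 4, 5 and 8. It was higher in protected islets on each matched day, as were 20.1% of all genes. Only its protected values of days 4 and 5 reached the array medians, and it passed the filter through them alone. Nothing is read from its log2 difference of −0.71 (limma, adjusted p = 0.534). Csf2, which encodes GM-CSF, also passed the filter through protected arrays alone. It was 4.03, 6.57 and 4.15 in protected islets of days 3, 4 and 5, and 1.42 to 2.42 in untreated and diabetogenic islets. Both genes are part of the list's count and median between the arms, from which nothing is read. Il13, which encodes interleukin-13, went the other way, at 1.40 in untreated islets, 3.45, 16.3 and 5.72 in diabetogenic and 2.79, 5.07, 7.21 and 1 in protected islets (0.95, limma adjusted p = 0.422). Csf2rb, the shared chain of the receptors for GM-CSF, interleukin-3 and interleukin-5, was 4.16 in untreated islets, 24.3, 26.5 and 46.3 in diabetogenic and 36.3, 92.6, 71.0 and 76.9 in protected islets (−0.99, limma adjusted p = 0.608). The interleukin-4 receptor gene Il4ra differed by −0.69 (limma, adjusted p = 0.608).

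Genes of alternative macrophage activation, which interleukin-4 and interleukin-13 also induce, included 5 of the 18 genes called between the arms. Of 12 such genes tested, 11 had a negative difference, 5 passed as lower in diabetogenic islets and none as higher, and the median was −1.06. Over all genes tested 0.0915% passed as lower and the median was −0.07. Those 5 were Ccl24, Chil3, the resistin-like gene Retnla, the arginase gene Arg1 and the scavenger receptor gene Cd163. Their log2 differences ran from −4.51 to −1.89. Cd163 and Mgl2, another gene of the list lower in diabetogenic islets, met the filter only with protected arrays. No result is read from their signs or from the call of Cd163. The number that passed was 3 with a pseudocount 4 times as large and 1 after quantile normalization or with all probe sets of a gene averaged. With no filter it was 4. Without the day block limma called no gene, and 272 had an unadjusted p under 0.05. Ccl17 was also lower in diabetogenic islets on each matched day, as were 20.1% of all genes. Nothing is read from this for Ccl17, since the rule used the protected arrays. Of the products that remove these ligands, Dpp4, a peptidase that trims chemokines, differed by −0.24 and Ackr2, a scavenging receptor, by −0.23, and neither passed (limma, adjusted p = 0.872 and 0.884).

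Genes of the cells that carry Ccr4 were dim for the most part. Of 16 genes of T helper 2 and regulatory T cells, 13 were tested and none passed, with 7 negative and 6 positive differences and a median of −0.02. Il4, which passed the filter through protected arrays alone, is among the negative ones. Foxp3, the defining factor of regulatory T cells, lay between 1.16 and 3.97 and Ccr8, a receptor often found with Ccr4, between 1.51 and 6.73, and neither passed the filter on dim probe sets. Il2ra, the interleukin-2 receptor gene of regulatory and activated T cells, differed by −0.65 (limma, adjusted p = 0.580). Tnfrsf4, which encodes the costimulator OX40, was 29.6 on the diabetogenic array of day 8, and 33.7 and 44.4 in protected islets of days 5 and 8, against 2.19 to 9.24 on the other arrays of injected mice. Of 21 other chemokine receptors, 17 were tested, 9 negative and 8 positive with a median of −0.02, and none passed. Ccr2, the receptor of inflammatory monocytes, had the largest difference among them, at −0.71 (limma, adjusted p = 0.614). The T cell genes gave 7 negative and 2 positive differences over 9 tested, and the homing and activation genes that often accompany Ccr4 gave 3 and 3 over 6, with none passing in either list.

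Markers of the cells known to make the ligands also differed between arrays, and their sums did not follow Ccl17 on all of them. Their part in the levels of Ccl17 was not tested. The 8 dendritic cell markers summed to 25.8 in untreated islets, 30.5 to 44.4 in diabetogenic and 51.0 to 189 in protected islets, so the sums of the arms did not overlap. Of all genes, 2.34% had every diabetogenic array below every protected one. Of the 8 markers taken singly, only Batf3 did, and the arms overlapped for the others, Itgax and Fscn1 included. Within an arm the sum did not follow Ccl17. It was 44.4 and then 30.5 in diabetogenic islets of days 3 and 4, where Ccl17 was 132 and then 328. That day 4 array was the dimmest, with a 99th percentile of 25.6. The sum was 131 and then 189 in protected islets of days 5 and 8, where Ccl17 was 3667 and then 1069.6. That rise came mostly from 2 markers. Fscn1, an actin-bundling protein of mature dendritic cells, was 41.5 in protected islets of day 5 and 94.4 in those of day 8, and Cd209a was 2.64 and 30.4. Itgax, which encodes the integrin chain CD11c, was 3.20 in untreated islets, 10.04, 1.16 and 4.32 in diabetogenic and 19.2, 9.53, 41.7 and 30.2 in protected islets. Other markers had a different course: Zbtb46, a factor of classical dendritic cells, was 11.1 on the diabetogenic array of day 4 and 3.15 on the protected array of day 5. Ccr7, the homing receptor of mature dendritic cells, was highest on the diabetogenic array of day 4, at 5.03, and Flt3, a growth factor receptor, was lowest on the protected array of that day, at 1.85. Between protected islets of days 5 and 8, Flt3 and Zbtb46 rose, while Itgax, Batf3 and Cd83 fell and Ccr7 was 3.06 and 3.01. The difference of Itgax between the arms was −1.65 (limma, adjusted p = 0.110), and that of Fscn1 was −1.28 (limma, adjusted p = 0.418). Of 14 dendritic cell genes tested, 12 had a negative difference and none passed, with a median of −0.46, against −0.07 over all genes. Of the 12, Batf3 passed the filter through protected arrays alone. Mgl2 reached the median outside the protected arm only on the diabetogenic array of day 3. No result is read from the signs of these 2 genes. Against untreated islets the medians of these genes were 0.93 in the protected and 0.29 in the diabetogenic arm. The T cell receptor gene Cd3g was not above the median on any array, and the T cell markers summed to 16.8 in untreated, 29.3 to 55.9 in diabetogenic and 33.0 to 78.0 in protected islets.

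The 8 macrophage markers summed to 55.8 in untreated islets, to 143, 158 and 1267 in diabetogenic islets of days 3, 4 and 8, and to 207, 1500, 1005 and 986 in protected islets of days 3, 4, 5 and 8. Most of this sum was Csf1r, the receptor of the macrophage growth factor, which reached 1067 in diabetogenic islets of day 8. On that day the macrophage sum was higher in the diabetogenic arm, while Ccl17 was 2.94-fold higher in the protected arm. The single markers were split. Csf1r, Lyz2, Itgam and Mertk were higher in diabetogenic islets of day 8, and Adgre1, Cd68, Fcgr1 and Cd163 were higher in protected ones. Of 10 macrophage genes tested, 9 had a negative difference, 1 passed as lower (Cd163), where 0.0915% of all genes did, and the median was −0.51, against −0.07 over all genes. None of them passed with the larger pseudocount, with no filter, after quantile normalization, with probe sets averaged or without the day block. Outside the protected arm Cd163 reached the array median only on the diabetogenic array of day 4, at 3.47 against 3.46. It therefore met the filter only with protected arrays, and nothing is read from its call. The same call is counted among the alternative activation genes. Against untreated islets the medians were 1.62 in the protected and 0.72 in the diabetogenic arm. Among other known sources of Ccl17, markers of epidermal and thymic epithelium summed to between 10.7 and 18.7 on every array. B cell markers summed to 6.33 to 14.3 and eosinophil markers to 13.2 to 19.7.

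**Figure D3:**
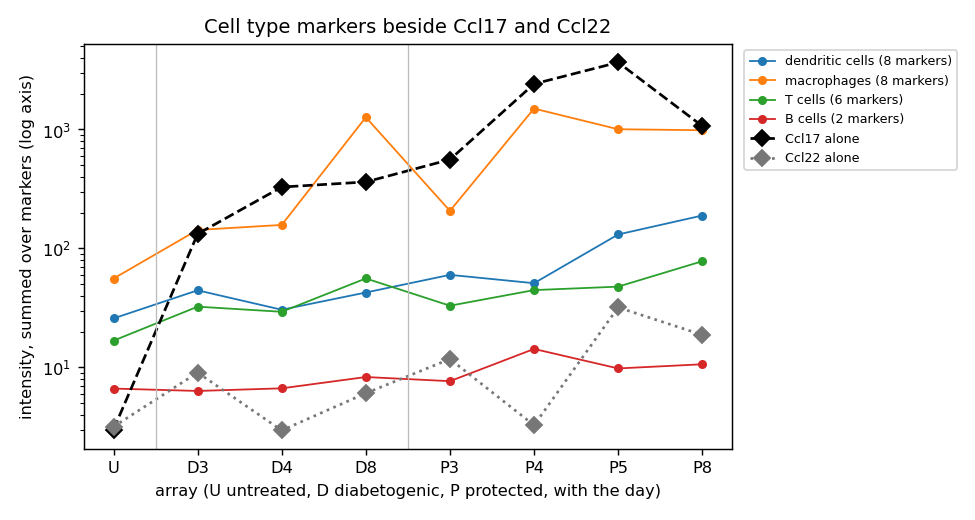
Intensity (log axis) on each array, summed over the measured markers of dendritic cells, macrophages, T cells and B cells, beside Ccl17 and Ccl22 alone; levels of different probe sets are not comparable, only their course over arrays. Ccl17 and the dendritic cell sum were higher on all 4 protected arrays than on any diabetogenic array, as were 2.34% of all genes. The macrophage sum reached 1267 on the diabetogenic array of day 8, most of it from Csf1r.

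The genes most like each of the 3 were found by Pearson's r over the 8 arrays on the log2 scale, among 4749 other genes with a range of at least 2. The 8 values share the arms, days and brightness of the arrays, so r is a description. For Ccl17 these were Csf2rb (r = 0.968), Tgm2 (0.967), Slfn2 (0.931), Clec7a (0.930) and the chemokine gene Ccl6 (0.924). Tgm2 was 29.4 in untreated islets, 218, 1151 and 393 in diabetogenic and 907, 2982, 2787 and 893 in protected islets, so it too was highest on days 4 and 5 of the protected arm. A dim second probe set of Csf2rb had r = −0.70, and 4 of the other 5 probe sets of Tgm2 had r between 0.936 and 0.959, the last being dim.

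For Ccl22 the genes were Efhd2 (0.972), Ptger4, a prostaglandin E2 receptor (0.965), Rassf5 (0.961), Notch2 (0.952) and Luc7l2 (0.951). All 5 were lower on each day 4 array than on the day 3 array of the same arm and highest on the protected array of day 5, as Ccl22 was. Second probe sets of Rassf5 and Notch2 gave r = −0.46 each, that of Efhd2 gave 0.27 and that of Ptger4 −0.04. Other probe sets of Luc7l2 gave −0.42 to 0.76, with 0.27 for one of mean intensity 10.8, against 10.99 for the one used. The likeness to Ccl22 thus rests on 1 probe set of each gene. For Ccr4 the highest were Iqcd (0.81), Dydc1 (0.809), Fem1a (0.756), Vip (0.749) and Mfsd4a (0.743), dim genes for the most part. Over the same 8 arrays r was 0.52 between Ccl17 and Ccl22, −0.50 between Ccl17 and Ccr4, and −0.35 between Ccl22 and Ccr4.

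**Figure D4:**
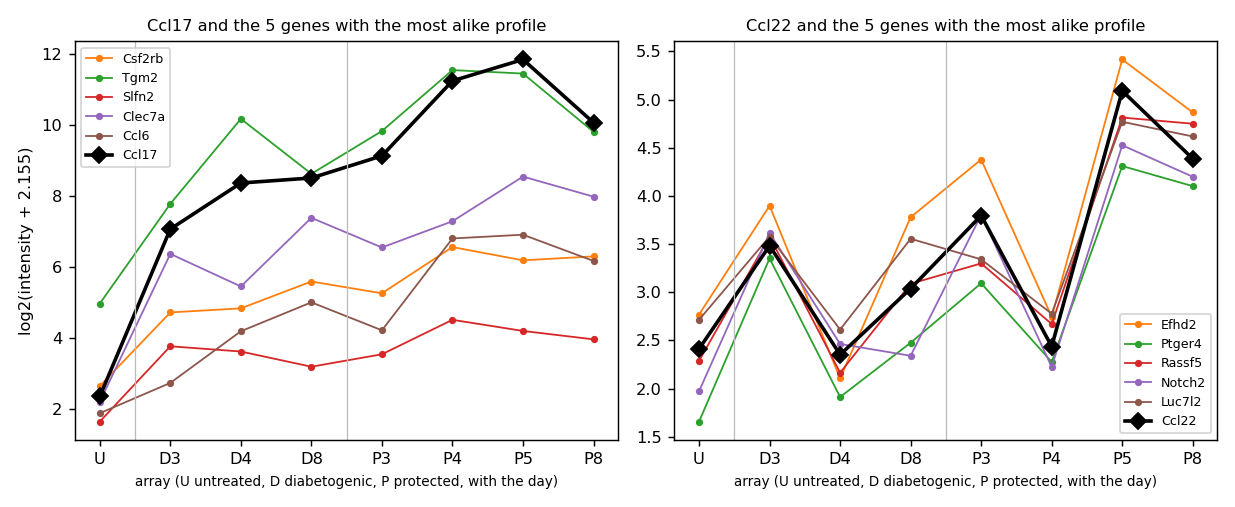
Log2(intensity + 2.155) on each array for Ccl17 (left) and Ccl22 (right), in black, with the 5 genes whose course over the 8 arrays was most alike. The Ccl17 set was lowest in untreated islets and high in protected islets of days 4 and 5, and the Ccl22 set was lower on day 4 than on day 3 in both arms.

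Genes around the ligands were compared in the same way. Of 11 neighbours tested, 7 had a negative and 4 a positive difference between the arms, none passed, and the median was −0.10. Cx3cl1, the chemokine gene between Ccl22 and Ccl17, was 6.53 in untreated islets, 10.8, 3.9 and 1.13 in diabetogenic and 9.55, 2.25, 8.74 and 3.97 in protected islets, a difference of −0.10 (limma, adjusted p = 0.961). Ciapin1, next after Ccl17, stood at −0.59 (limma, adjusted p = 0.626) and Pllp, next before Ccl22, at 0.38 (limma, adjusted p = 0.756). With the pseudocount added, none of those 3 was 2-fold above its untreated level on any array. On the intensities themselves, Pllp was 4.94 in untreated and 10.5 in diabetogenic islets of day 3.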

How the data were processed

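The deposited values were probe set intensities on a linear scale in 1 table made by the authors, with a column per array. The probe summary and array scaling behind them are not stated in the sources used here. Per the labels' protocols, RNA from laser-captured islets of 5 mice was pooled, amplified and labelled with biotin. A pseudocount of 2.155, the median of the arrays' lower quartiles, was added before taking log2, so folds of dim genes are understated. Only probe sets with 1 gene symbol were used (34958 of 45101), at or above the array median on at least 2 of 8 arrays, the brightest per gene.

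limma 3.58.1 in R 4.3.3 (lmFit, eBayes with a variance trend) was run over all 16396 genes with Benjamini-Hochberg adjustment at 0.05. The arms were compared over 6 arrays with day as a block, each arm with the untreated array over 8, and slopes over the 7 injected arrays. A gene's own spread had 2, 5 and 3 residual degrees of freedom in these fits, against 29.99, 11.34 and 10.81 from the trend, so errors rest mostly on genes of like level. Nothing in the labels says whether pools came from separate experiments, so p-values measure the spread between these arrays. In the comparisons with untreated islets that spread is between days within an arm. The single untreated array was assumed to vary in the same way, and its own spread was not measured. The script was tested on simulated data. The genes and gene lists were chosen with earlier results of these data known. Named genes were the 3 genes themselves, up to 4 of each list by size of difference between arms, the 5 most alike in course, the 5 ranked below Ccl17 and the nearest neighbours; Tyrobp, Gbp2, other chemokines and markers were named after their values were seen. Alternatives covered the pseudocount, filter, scaling, probe set choice, variance trend, day block and leaving out each array or day pair. Sequences, positions and names came from RefSeq (GRCm38.p6), where each of the 3 genes had a match; protein sequences were not used here.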

Additional observations from a re-analysis of the deposited data

How the results depend on the processing

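Of 201 values of Ccl17, Ccl22 and Ccr4 under other settings, 184 kept their direction and side of the threshold or stayed within the spread, 14 changed sign and 3 moved. The levels and arm differences of Ccl17 had no test and were counted by sign and size alone. With a pseudocount of 0.539, Ccr4 in protected against untreated islets was −0.70, and with 8.62 it was −0.21, while Ccl17 in diabetogenic against untreated islets was then 4.49. The change of Ccr4 per day in diabetogenic islets was −0.0032 after median centring and −0.0040 after quantile normalization. Leaving out 1 array at a time, it ranged from −0.56 to 0.13, that of Ccr4 in protected islets from −0.081 to 0.18, and the Ccr4 slope difference from −0.55 to 0.13. On the same basis Ccl22 changed by −1.13 to 0.17 per day in diabetogenic islets, Ccl17 by −0.36 to 1.36 in protected islets and by −1.14 to 1.25 as the slope difference, and Ccr4 in diabetogenic against untreated islets by −0.16 to 0.12. The cause of these changes was not tested.

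The count of 18 genes called between the arms was 8 with the larger pseudocount, 10 with no filter, 1 after quantile normalization, 1 with probe sets averaged, 11 with no variance trend and 0 (limma) without the day block, where 272 genes had an unadjusted p under 0.05. It was 33 to 69 when a day pair was left out. The diabetogenic slope had 14 calls with no filter and 1 with the larger pseudocount, and the protected arm against untreated had 1 after quantile normalization. Leave-one-out counts ran from 0 to 4 for the diabetogenic slope, 0 to 3 for the slope difference and 0 to 1 for the protected arm against untreated. The number of arrays and the dimness of Ccl22 and Ccr4 limit what these values can show. No paired analysis by replicate number was possible because the labels give days and no replicate numbers.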
